A study of Mus musculus with 18 samples.

Results

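Thymocytes that carried a stabilised form of beta-catenin but had not yet become lymphomas were compared with control thymocytes. The comparison used all arrays of these groups, 10 of the 18 in the series, with 1 array per mouse. The first group held 5 mice labelled CD4Cre-ctnnbex3 and sampled before T-cell transformation. In these animals Cre recombinase is driven from Cd4 regulatory sequences and removes exon 3 of Ctnnb1, which carries the phosphorylation sites that mark beta-catenin for destruction. The second group held 5 control mice, named LckCre in the text of the series but wild type in the labels of the samples. A further 8 CD4Cre-ctnnbex3 mice had lymphomas, and their values are given only beside the comparison. The mice were independent per the series text, and no ages, strains or sexes were given. Of 45101 probe sets 34945 carried 1 gene symbol, for 18193 genes, and the 14019 genes with enough signal were tested.

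Beta-catenin is the transcriptional arm of canonical Wnt signalling. Without a Wnt signal a complex of Axin, APC and GSK3 marks it for degradation, and once it accumulates it binds TCF1 and LEF1 on DNA, among whose targets are inhibitors of the pathway itself. In the thymus, progenitors lacking both coreceptors assemble a T-cell receptor beta chain, pass with its help to the CD4 and CD8 double-positive stage, and are then selected through the T-cell receptor into single-positive cells that leave for the blood. TCF1, LEF1, Notch1 and the E proteins all act on these steps, and Cre under Cd4 control is active from about the double-positive stage.

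The 10 arrays had median signals of 136 to 166. Genes of the T lineage were strong in every mouse: the summed signal of 11 such genes, Cd3e, Cd4, Cd8a and Rag1 among them, was 63366 to 68202 in controls and 51038 to 75705 before transformation. On the first principal component, with 36.9% of the variance, controls scored -27.8 to -21.2 and the other mice 18 to 29.4. The second component held 27.5% and set mice before transformation numbered 1 and 2 (23.5 and 42.6) apart from those numbered 3 to 5 (-28.2 to -13.7). Xist was high and Eif2s3y at the floor in controls 1 and 2, the female pattern, and the other 8 mice had the male pattern. For some of the gene lists and genes, values within each set of mice are given too, and the plot of list medians by set shows the reported lists with at least 8 tested genes. RNA of whole thymocyte suspensions was measured, so that fewer cells of a type and less RNA per cell cannot be told apart.

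With limma and an adjusted p under 0.05 as the threshold, 1479 of 14019 genes (10.5%) differed: 612 (4.37%) were higher and 867 (6.18%) lower before transformation. A rise or fall below is a change past this threshold. The median log2 difference over all genes tested was -0.02. Rises had a median size of 0.74 and falls one of -0.64 on the log2 scale. Changes of at least 1 on that scale numbered 199 rises (1.42%) and 181 falls (1.29%), those of at least 4-fold 58 and 35, and those of at least 8-fold 19 and 8. Values of the 5 and the 5 mice did not overlap in 1481 genes (10.6%), 606 of them (4.32%) higher and 875 (6.24%) lower. Each of the 1479 genes differed in the same direction in mice 1 and 2 and in mice 3 to 5, and 502 passed the threshold within each set. Both sets are parts of the mice that gave the 1479 genes, so the selection itself favours agreement in direction. In mice 1 and 2 the groups also differed in sex pattern. Among male mice alone 917 genes passed, 457 of them lower, and with the lymphomas in 1 fit 818 passed, 370 higher and 448 lower. With the set of mouse numbers as a block 1970 passed, 779 higher and 1191 lower.

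In the values that follow, the 5 mice of a group are listed in the order of their numbers, and signals are the deposited linear intensities. A signal of 53.5 is the floor to which blank and low values were set. Where 3 or more mice of a group lay at the floor, a fold is given as at least that size. A difference is the mean log2 signal before transformation minus that of controls, ± its standard error, with 5 mice in each group.

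The 15 largest rises were in genes well above the floor in every mouse with stabilised beta-catenin, several of which lay at or near the floor in control thymocytes. Cadm4, an adhesion molecule of the immunoglobulin superfamily, had signals of 53.9, 90.2, 79.0, 72.7 and 53.5 in controls and of 4792, 3559, 2667, 4252 and 3241 before transformation. Every mouse before transformation thus lay far above every control, a 53-fold rise (log2 difference 5.73 ± 0.19, adjusted p = 9.4e-09). Cecr2, which encodes a bromodomain protein of chromatin remodelling complexes, had signals of 133, 149.6, 108, 148 and 105 in controls and 6616, 6385, 4229.9, 6475 and 5652 before transformation. That 45.5-fold rise (5.51 ± 0.15, adjusted p = 2.8e-09) was seen in both of its probe sets. In lymphomas Cecr2 lay between them, with a median of 813 and a range of 336 to 1362.

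Next came 4 genes of different roles whose signal in controls was at or just above the floor. Slc1a4, a transporter of neutral amino acids, was at the floor in all 5 controls and had signals of 1979, 2080.4, 1081, 1292 and 1559 before transformation, a rise of at least 29.0-fold (4.86 ± 0.17, adjusted p = 1e-08). Wwc1, the Hippo pathway scaffold also called KIBRA, was likewise at the floor in all controls and had signals of 1939, 1753, 1061, 1651 and 1289, at least 28.1-fold higher (4.81 ± 0.15). Each was called in all of its probe sets, 3 for Slc1a4 and 4 for Wwc1. Cpeb1 binds the cytoplasmic polyadenylation element of messenger RNAs. Its signal was 53.5, 66.9, 53.5, 56.4 and 53.5 in controls and 1785, 1961, 1031, 1542 and 1473 before transformation, at least 26.9-fold higher (4.75 ± 0.16, adjusted p = 1e-08). Gadd45g, a stress-inducible activator of p38 kinase signalling and a reported beta-catenin target, rose from the floor in all controls to 1636, 1669, 851, 1401 and 1289, at least 24.9-fold (4.64 ± 0.17, adjusted p = 1.3e-08). In lymphomas Slc1a4 was lower than in any mouse before transformation, at 85.8 to 509.9, and Wwc1 was higher than in any of them, at 2001 to 3727.

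**Figure D1:**
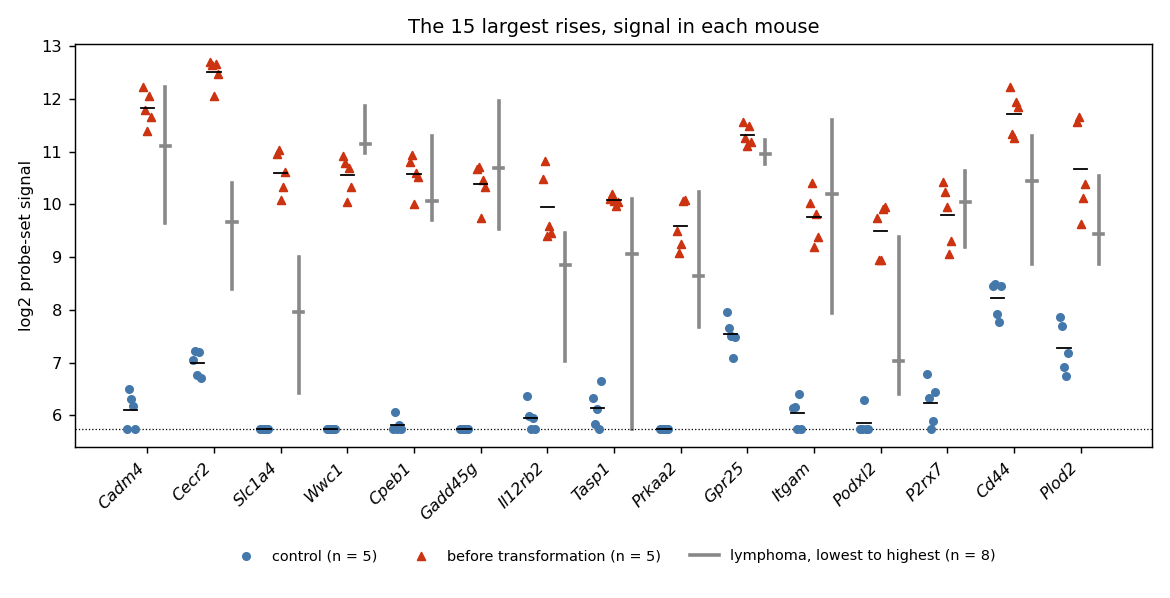
Log2 signal of the 15 largest rises, with controls as circles, mice before transformation as triangles, the group mean as a black bar, and the range and median of 8 lymphomas in grey; the dotted line is the floor at 5.74. Every triangle lies above every circle of its gene, while the lymphomas lie above them, below them or between them, depending on the gene.

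Il12rb2, the signalling chain of the interleukin-12 receptor, had signals of 82.4, 63.5, 53.5, 62.3 and 53.5 in controls and 1436, 1814, 677, 768 and 706 before transformation, 15.9-fold higher (3.99 ± 0.27, adjusted p = 2.6e-06). Mice 1 and 2 were the highest of their group. Tasp1, a protease that cleaves the histone methyltransferase MLL, had a narrow spread before transformation and went from 79.9, 57.3, 69.5, 53.5 and 101 to 1102, 1172, 1067, 1000.2 and 1055 (15.3-fold, 3.94 ± 0.16). Prkaa2, which encodes the catalytic chain of AMPK, went from the floor in all controls to 722, 541, 612, 1070.1 and 1082, at least 14.5-fold. Here mice 4 and 5 were the highest. Gpr25, an orphan G-protein coupled receptor, was already above the floor in controls, at 248, 202, 181, 136 and 178, and reached 3003, 2452, 2199, 2860.3 and 2308 (13.7-fold, 3.78 ± 0.15).

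Several of the largest rises encode cell-surface proteins. Cd44, the hyaluronan receptor of activated and memory T cells and also a reported beta-catenin target, had signals of 351, 360.4, 244, 219.6 and 352 in controls and 4754, 2570.5, 2433, 3915 and 3685 before transformation, 11.2-fold higher (3.49 ± 0.21, adjusted p = 9.5e-07) in all 3 of its probe sets. Itgam, the integrin alpha chain CD11b that is best known from myeloid cells, had signals of 70.7, 71.4, 53.5, 84.6 and 53.5 and 1044, 1361, 586, 902 and 666 (13.3-fold, 3.73 ± 0.23). None of 16 macrophage and dendritic cell marker genes was called beside it. Of 11 granulocyte markers 5 fell and none rose. Within mice 3 to 5, 2 macrophage and dendritic cell markers and 1 granulocyte marker rose and none fell, while mice 1 and 2 gave no rise in either list and 6 falls of granulocyte markers. The part of myeloid cells in the rise of Itgam was not tested. Podxl2, a sialomucin that binds selectins, was at the floor in 4 of 5 controls and had signals of 851, 495, 493, 961 and 993, at least 12.5-fold higher (3.65 ± 0.23). P2rx7, the ATP-gated ion channel, rose 11.8-fold, from 110.5, 80.6, 53.5, 59.2 and 87.1 to 1376, 1200.3, 987, 535 and 631, and mice 4 and 5 were the lowest of its group. Plod2, a lysyl hydroxylase of collagen, rose 10.4-fold (3.38 ± 0.38, adjusted p = 0.00013). Its signals of 3012, 3207, 788, 1114 and 1343 before transformation fell apart by mouse number, with mice 1 and 2 above the others.

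The largest falls included a retinoid enzyme, an inhibitor of E proteins, the chemokine receptor CCR7 and neutrophil genes. Dhrs3, which reduces retinal to retinol, had signals of 1004, 916, 1212, 1008 and 1364 in controls and 123, 57.7, 68.0, 74.7 and 106 before transformation. This 13.2-fold fall (-3.72 ± 0.21, adjusted p = 5.6e-07) went further in lymphomas, where the median lay at the floor. Ly6d, a lipid-anchored surface protein, fell 12.1-fold (-3.60 ± 0.31), from 2258, 2429, 2899, 3360.1 and 2415 to 286, 265, 376, 93.9 and 183. Tdrd5, a Tudor-domain protein best known from the germ line, was at 489, 504, 1054, 1083 and 331 in controls and at or just above the floor in every mouse before transformation, at least 11-fold lower (-3.46 ± 0.30). Controls 3 and 4 were the highest here.

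Id3 encodes an inhibitor of E proteins that is induced by the T-cell receptor. Its signals were 1301, 1187, 1198, 1286 and 1276 in controls and 67.8, 95.1, 463, 135 and 109.9 before transformation, 9.27-fold lower (-3.21 ± 0.40, adjusted p = 0.00027). Mouse 3 kept the highest level of its group, still below every control. Ccr7, a chemokine receptor of mature T cells, was at 593, 567, 400.1, 418 and 495 in controls. Before transformation 3 of 5 mice were at the floor and the highest reached 62.7, at least 8.84-fold lower (-3.14 ± 0.13, adjusted p = 4.9e-08). Tesc, a calcium-binding protein, and Scn4b, a sodium channel beta subunit, were at the floor in all 5 mice before transformation. In controls Tesc lay at 288 to 591 and Scn4b at 212 to 426, so that the falls were of at least 8.23-fold and 6.67-fold. Tesc was back at 112 to 976 in lymphomas and Scn4b at the floor in all 8.

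**Figure D2:**
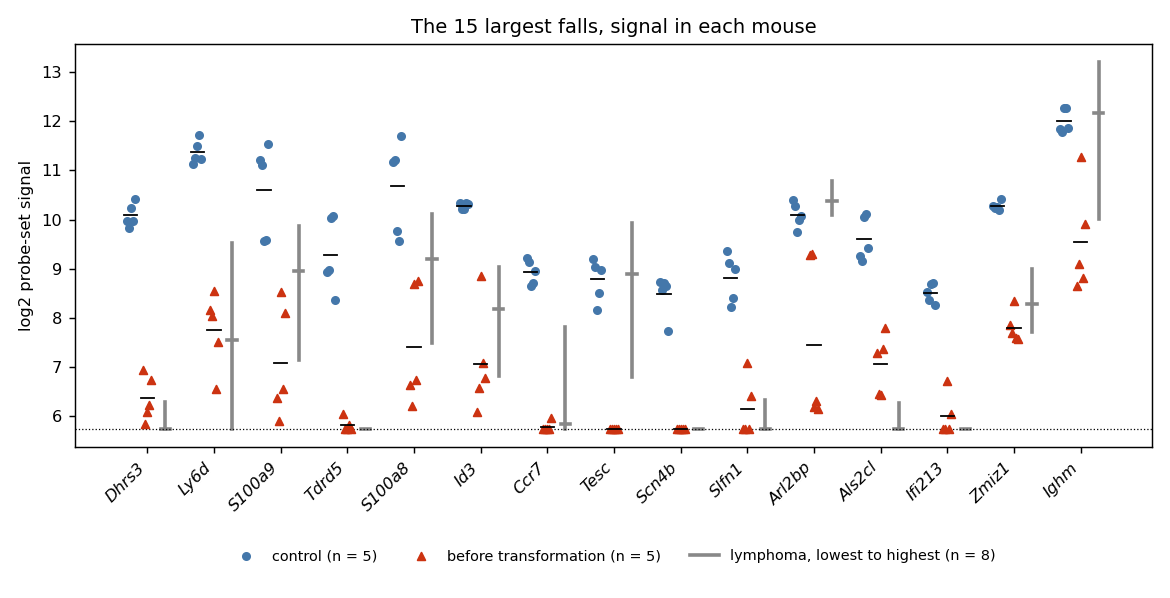
Log2 signal of the 15 largest falls, drawn as for the rises, with controls as circles, mice before transformation as triangles and 8 lymphomas as a grey range with its median. Every triangle lies below every circle of its gene; for Arl2bp the triangles form an upper pair, mice 1 and 2, and a lower trio.

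Slfn1, a Schlafen gene of T-cell growth regulation, fell at least 6.39-fold (-2.68 ± 0.30), with mouse 3 at 136 the highest of its group. Als2cl, a protein related to the exchange factor alsin, fell 5.78-fold (-2.53 ± 0.29). Ifi213, an interferon-inducible gene of the HIN200 family, fell at least 5.73-fold (-2.52 ± 0.20). Zmiz1, a coactivator of Notch1, fell 5.53-fold (-2.47 ± 0.14, adjusted p = 6.8e-07), from 1247, 1201, 1221, 1168 and 1364 to 231, 207, 324, 193 and 189. It was called in 3 of its 4 probe sets. Arl2bp, which binds the small GTPase ARL2, had signals of 1351, 1245, 864, 1019 and 1080.0 in controls and 623, 633, 72.9, 79.7 and 71.2 before transformation. Its 6.28-fold fall (-2.65 ± 0.64, adjusted p = 0.019) was -1.05 in mice 1 and 2 and -3.72 in mice 3 to 5 on the log2 scale, and without before-transformation mouse 5 its adjusted p was 0.052.

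S100a8 and S100a9, the paired calcium-binding proteins of neutrophils, were among the largest falls and varied in controls. S100a9 had signals of 2377, 2216, 763, 771 and 2962 in controls and 83.0, 60, 369, 93.8 and 276 before transformation, 11.4-fold lower (-3.51 ± 0.56, adjusted p = 0.0015). S100a8 had signals of 2295, 2375, 869.6, 757 and 3348 and 100.1, 73.7, 415, 107 and 431. In both genes controls 3 and 4 were the lowest controls and mice 3 and 5 the highest of the other group. Ighm, the immunoglobulin heavy chain of B cells, fell 5.49-fold (-2.46 ± 0.41), from 3681, 3543, 4913, 4948 and 3711 to 401, 548, 2458, 451 and 967, with mouse 3 closest to the controls. Of its 7 probe sets 2 were called. The other 8 B-cell markers tested were not called, and the part of B cells in the fall of Ighm was not tested.

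Promoters of the changed genes were searched for the core sequence bound by TCF1 and LEF1, spelled NNCAAAG with A or T at each N and searched on both strands, because these factors carry beta-catenin to DNA. The window was the 250 bases before the start of each RefSeq transcript in GRCm38.p6. Of 14209 such windows, for 11195 of the genes tested, 11.4% held at least 1 match. The share was 10.9% for genes that rose and 10.9% for genes that fell. For changes of at least 1 on the log2 scale it was 11.2% and 13.6%. The windows of Axin2, Cadm4, Slc1a4, Wwc1 and Gadd45g held none. Shown are the largest rises and falls with a match, Podxl2 and P2rx7 among rises and Dhrs3 and Ifi213 among falls, each 5′ to 3′ on the strand of the gene and with the match in capitals.
Podxl2, chr6:88874774-88875023, minus strand, ending at the transcript start: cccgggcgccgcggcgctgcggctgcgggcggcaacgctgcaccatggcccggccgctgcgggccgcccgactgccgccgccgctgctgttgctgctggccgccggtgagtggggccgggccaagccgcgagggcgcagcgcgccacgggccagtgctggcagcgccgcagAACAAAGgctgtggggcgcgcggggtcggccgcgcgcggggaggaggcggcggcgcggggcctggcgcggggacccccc
P2rx7, chr5:122650133-122650382, plus strand: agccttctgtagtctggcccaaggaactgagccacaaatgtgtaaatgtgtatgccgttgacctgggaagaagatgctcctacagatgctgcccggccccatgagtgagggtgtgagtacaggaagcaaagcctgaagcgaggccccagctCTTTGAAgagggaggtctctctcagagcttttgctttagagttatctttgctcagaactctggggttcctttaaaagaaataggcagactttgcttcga
Dhrs3, chr4:144892887-144893136, plus strand: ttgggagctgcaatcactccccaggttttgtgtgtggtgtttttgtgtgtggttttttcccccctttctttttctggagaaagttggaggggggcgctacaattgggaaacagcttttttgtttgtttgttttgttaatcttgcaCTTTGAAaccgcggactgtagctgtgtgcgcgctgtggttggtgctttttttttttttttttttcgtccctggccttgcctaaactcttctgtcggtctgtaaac
Ifi213, chr1:173599273-173599522, minus strand: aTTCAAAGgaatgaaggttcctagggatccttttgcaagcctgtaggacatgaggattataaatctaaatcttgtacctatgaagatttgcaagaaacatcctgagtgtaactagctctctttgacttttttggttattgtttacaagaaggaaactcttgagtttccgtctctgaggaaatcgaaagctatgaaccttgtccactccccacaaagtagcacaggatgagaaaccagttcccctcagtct
Each of the 4 windows held 1 match, which lay 79 bases before the start in Podxl2, 99 in P2rx7, 105 in this transcript of Dhrs3 and 249 in Ifi213. In P2rx7 and Dhrs3 the match is on the opposite strand.

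The level of Ctnnb1 itself did not pass the threshold. Ctnnb1 had signals of 3949, 3873, 3983, 3566 and 3282 in controls and 4799, 4766, 3826, 4552 and 4333 before transformation, and these values overlapped (0.25 ± 0.08, adjusted p = 0.074). None of its 3 probe sets was called, and the signal of a probe set does not measure the loss of an exon. Axin2, the scaffold of the destruction complex and a standard target of the pathway, had signals of 312, 331, 311, 305 and 295 in controls and 865, 740.0, 1237, 743 and 770.4 before transformation. It rose 2.75-fold without overlap (1.46 ± 0.14, adjusted p = 2.9e-05), and mouse 3, which was often closest to the controls in other genes, had the highest value. In lymphomas Axin2 was higher still, at 1129.9 to 2208.

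The list of Wnt feedback inhibitors and receptor-level regulators also held the transcriptional regulators Ascl2 and Zcchc12. Of its 20 tested members 4 rose and 1 fell, with a median difference of 0.09 against -0.02 over all genes. Znrf3, a ubiquitin ligase that removes Wnt receptors, rose 2.24-fold (1.16 ± 0.22, adjusted p = 0.0041), from 278, 273, 353, 397 and 277 to 1042, 837, 622, 720.0 and 424. Its difference was 1.76 in mice 1 and 2 and 0.76 in mice 3 to 5. Nkd1, an inhibitor that binds Dishevelled, rose 1.53-fold (0.61 ± 0.11, adjusted p = 0.0038), and 2 of its 4 probe sets were called. Ascl2, a transcription factor of the intestinal Wnt programme, rose 1.42-fold with overlapping values (0.50 ± 0.14, adjusted p = 0.035). It did not pass when any 1 of 8 mice was left out (adjusted p = 0.066 to 0.086), the exceptions being control 2 and before-transformation mouse 2. Zcchc12, a transcriptional coactivator with a zinc knuckle, was the member that fell, at least 2.63-fold (-1.39 ± 0.14). Kremen1, a co-receptor of the inhibitor DKK1, showed no call, with 878 to 1424 in controls and 888 to 1356 before transformation.

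The list of the destruction complex and of nuclear partners also held the junction gene Ctnna1. Of its 24 tested members 1 rose, Ctnna1, and 3 fell (median 0.01). Ctnna1, the alpha-catenin that ties beta-catenin to actin at cell junctions, had signals of 375, 368, 292, 290.4 and 362 in controls and 1149.7, 741, 664, 689 and 725 before transformation, 2.32-fold higher (1.21 ± 0.15, adjusted p = 0.00031). Lef1, the DNA-binding partner, fell 1.44-fold (-0.53 ± 0.09, adjusted p = 0.0019), from 2036, 1946, 2103, 2062 and 1862 to 1575, 1169, 1357, 1506 and 1358. The coactivators Crebbp (-0.44 ± 0.09) and Bcl9 (-0.50 ± 0.13, adjusted p = 0.025) also fell, and Bcl9 did not pass in 6 of 10 analyses that left out 1 mouse (adjusted p = 0.052 to 0.067). Apc, Gsk3b and Tcf7l2 were not called, at 0.06, -0.24 and -0.19.

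Of 25 further genes reported as beta-catenin targets, 2 rose, Gadd45g and Cd44, and 4 fell (median 0.05). Ccnd2, the cyclin D2 that drives entry into the cell cycle, had signals of 1922, 1869, 858, 1037 and 1265 in controls and 177, 124, 972, 229.9 and 288 before transformation, 4.91-fold lower (-2.30 ± 0.47, adjusted p = 0.0073). Mouse 3 lay among the controls and the other 4 mice far below them. Myc, the growth-promoting transcription factor, showed the same mouse apart, with 467, 437, 475, 488 and 456 in controls and 168, 199, 517, 132 and 223 before transformation (-1.08 ± 0.29, adjusted p = 0.033). It did not pass when any mouse other than before-transformation mouse 3 was left out (adjusted p = 0.056 to 0.080). In lymphomas Myc was at 1249.8 to 2489, above all 10 other mice. Id2, an E-protein inhibitor like Id3, fell 2.71-fold (-1.44 ± 0.25), and Tiam1, an activator of the GTPase Rac, fell 2.39-fold (-1.26 ± 0.16, adjusted p = 0.00026). Sox4 was not called (0.14).

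**Figure D3:**
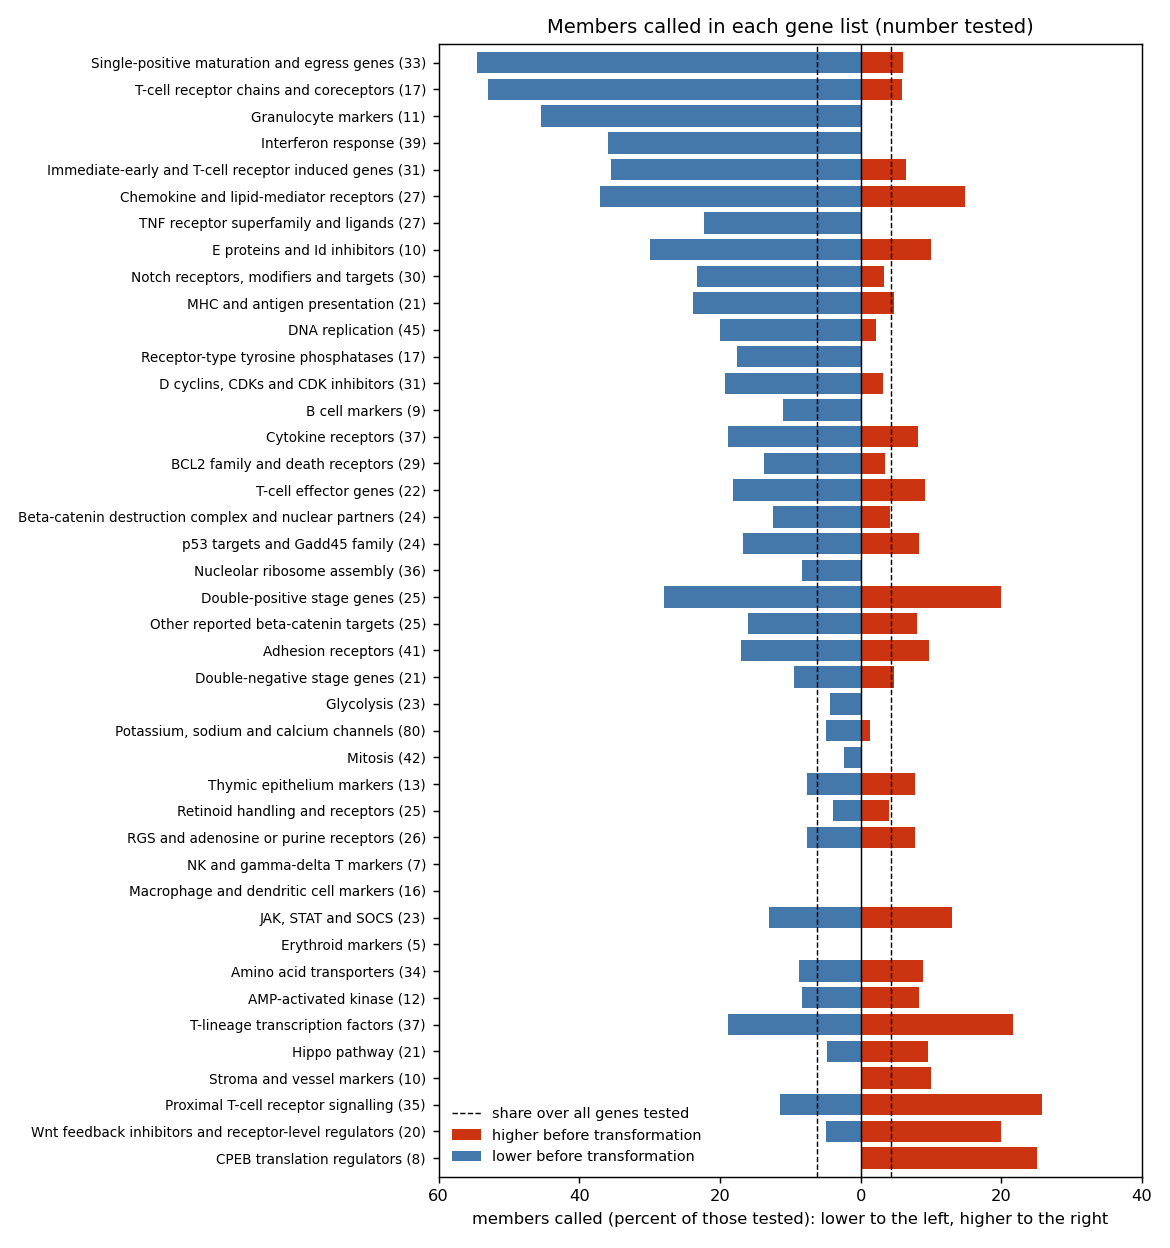
Share of tested members that fell (left, blue) or rose (right, red) in each reported gene list, with the number tested in brackets and dashed lines at the shares over all genes tested, 6.18% fallen and 4.37% risen. Single-positive maturation genes, the list of T-cell receptor chains and coreceptors and granulocyte markers reach furthest to the left, and proximal T-cell receptor signalling and CPEB regulators furthest to the right.

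Genes of the Notch pathway, which drives the earliest T-cell steps, fell more often than they rose: 7 of 30 tested fell and 1 rose (median -0.06; -0.32 with 7 falls in mice 1 and 2, 0.02 with 5 falls in mice 3 to 5). Notch1, the receptor, had signals of 2514, 2551, 2403, 2283 and 2215 in controls and 581, 575, 729, 475 and 602 before transformation, 4.07-fold lower (-2.03 ± 0.11, adjusted p = 3.1e-07). In lymphomas its median lay at the floor. Ptcra, the pre-T-cell receptor alpha chain and a Notch target, fell 3.45-fold (-1.78 ± 0.11), from 453, 424, 449, 492 and 465 to 129.8, 161, 116, 128 and 131. Lfng and Mfng, glycosyltransferases that tune Notch receptors, fell 4.59-fold (-2.20 ± 0.25) and 1.85-fold (-0.88 ± 0.15). Dtx3, of the Deltex family of Notch-linked ubiquitin ligases, fell 1.71-fold (-0.77 ± 0.13). Adam17, a membrane protease, was the 1 member that rose (0.67 ± 0.14, adjusted p = 0.01). Hes1 was not called, and its values were 105 to 255 before transformation against 119 to 238 in controls.

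E proteins and their Id inhibitors moved in opposite directions in part. Tcf3, which encodes E2A, had signals of 1306, 1269, 1295, 1283 and 1154 in controls and 1913, 1733, 1579.7, 1908 and 1866 before transformation, a rise of 1.42-fold without overlap in all 3 of its probe sets (0.51 ± 0.08, adjusted p = 0.00095). Id3 and Id2 fell, as did Tcf4, which encodes the E protein E2-2 (-0.63 ± 0.11, 5 of 5 probe sets). The remaining 6 of 10 members were not called, Tcf12 (HEB) at 0.08 among them.

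The list of T-cell receptor chains and coreceptors also held accessory receptors such as Cd2, Cd6 and Cd96 and the adaptor Trat1. Of its 17 tested members 9 fell and 1 rose (median -0.34). Male mice alone gave 6 falls and no rise, and the fit with the lymphomas 3 falls and no rise. Cd2, an adhesion and costimulatory receptor, fell 2.51-fold (-1.33 ± 0.17), from 1860.3, 1859.9, 1228, 1372 and 1434 to 626, 551, 850.0, 462 and 618. Cd6, a scavenger-type receptor of T cells, had signals of 2337 to 2568 in controls and 1183 to 1529.7 before transformation (-0.82 ± 0.08, adjusted p = 4.6e-05). Cd96 (-1.64 ± 0.25) and the receptor-associated adaptor Trat1 (-1.10 ± 0.18) fell, and the signalling chains Cd247 (-0.51 ± 0.10), Cd3g (-0.37 ± 0.08) and Cd3d (-0.30 ± 0.07) fell by less. Cd4 was the member that rose (0.55 ± 0.14, adjusted p = 0.028). Its signals were 4181, 3981, 4077, 3726 and 3710.5 and 7581, 5952, 3911, 6513 and 5517, and mouse 3 lay among the controls. Cd4 did not pass in 7 of 10 analyses without 1 mouse (adjusted p = 0.054 to 0.071), and without before-transformation mouse 3 the list held 4 rises. Cd8a (0.28) and Thy1 (0.17) were not called.

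Proximal signalling from the T-cell receptor had 9 rises in 35 genes and 4 falls (median -0.05). With the set of mouse numbers as a block it had 10 rises and 11 falls, and with the lymphomas in the fit 4 rises and 2 falls. Zap70, the kinase that binds the activated receptor, had signals of 1628, 1552, 1229, 1621 and 1437 in controls and 2511, 2164, 2167, 2118 and 2241 before transformation, 1.51-fold higher (0.59 ± 0.09, adjusted p = 0.0012). Rasgrp1, the diacylglycerol-dependent activator of Ras, rose 1.54-fold in all 4 of its probe sets (0.62 ± 0.10), and Tespa1, needed for thymocyte selection, rose 1.41-fold (0.50 ± 0.08). Dgka, a diacylglycerol kinase and hence a brake on that step, rose 1.71-fold (0.78 ± 0.10, adjusted p = 0.0004), from 4002, 4042, 3942, 4174 and 3062 to 7288, 6661, 5629, 7363 and 5989.8. Among the falls, the Src-family kinase Fyn had signals of 1382 to 1718 in controls and 689 to 1172 before transformation (-0.92 ± 0.14), and the adaptor Sla2 fell 1.60-fold (-0.68 ± 0.10). Lat, the central adaptor, was not called at 0.04.

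Genes induced within hours of receptor stimulation fell in 11 of 31 cases and rose in 2 (median -0.31). Dusp2, a phosphatase of MAP kinases, had signals of 1313, 1368, 1012, 1250.3 and 1572 in controls and 444, 327, 603, 414 and 382 before transformation, 3.04-fold lower (-1.60 ± 0.16, adjusted p = 5.2e-05). Egr1, the early growth response factor, fell 2.13-fold (-1.09 ± 0.21), with mouse 3 at 1349 nearest to the controls. Dusp1 (-1.10 ± 0.16), Nfkbid (-1.0 ± 0.14) and the RNA-destabilising protein Zfp36 (-1.01 ± 0.14) fell as well. Egr2 and Nab2, partners in the same response, had differences of -1.34 and -1.72, both falls, and mouse 3 was at 417 for Egr2, within the control range of 309.9 to 429. Egr2 did not pass in 7 of 10 analyses without 1 mouse (adjusted p = 0.055 to 0.071). Klf6 went the other way, 1.85-fold higher (0.89 ± 0.12) in all 4 of its probe sets. Cd69, the surface marker of recent stimulation, was not called (0.20, adjusted p = 0.53). Mice 1 and 2 alone gave 11 falls in this list, mice 3 to 5 gave 6 and male mice 5.

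**Figure D4:**
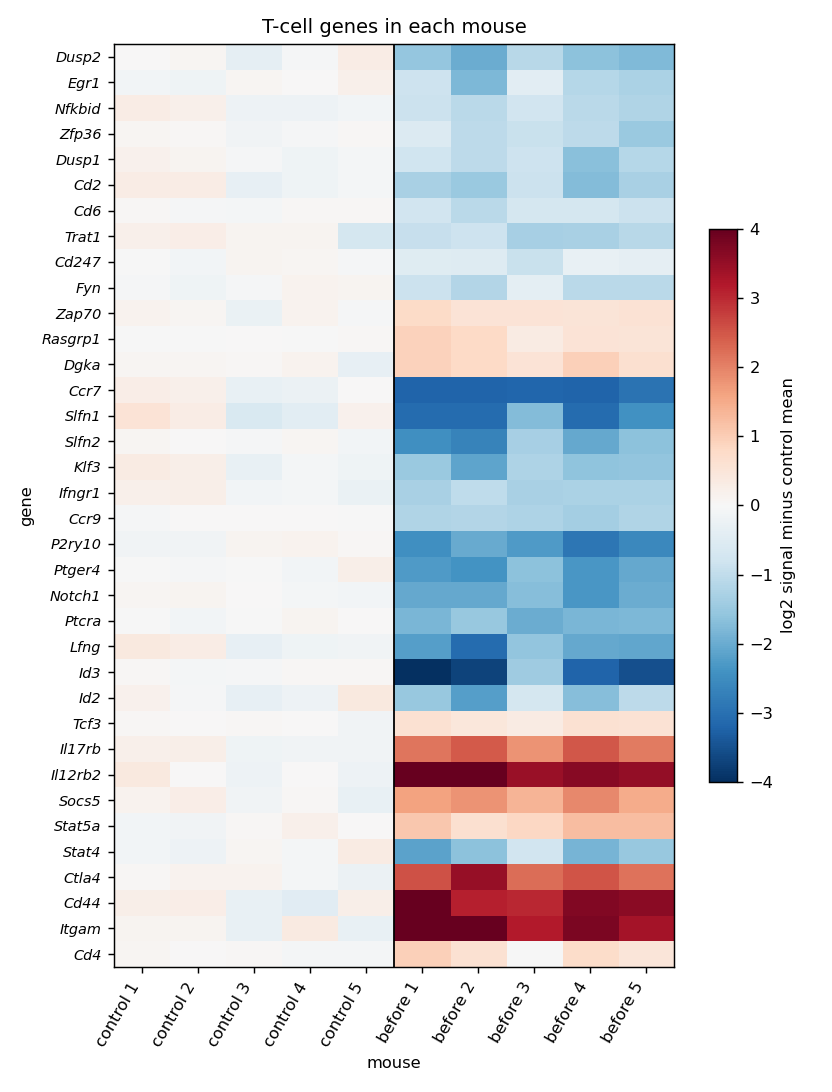
Log2 signal of 36 genes of T-cell development and signalling in each of the 10 mice, as the difference from the mean of the 5 controls, from -4 (blue) to 4 (red), with larger differences drawn at the end of the scale. The 5 columns at the left are controls and the 5 at the right mice before transformation, where mouse 3 is the palest column for Id3, Egr1, Slfn1 and Stat4.

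Stage markers did not move as a block. Of 21 genes of the double-negative stage 1 rose and 2 fell (median -0.01): Il2ra, the interleukin-2 receptor alpha chain, fell 2.33-fold (-1.22 ± 0.28) and Notch3 fell (-0.40 ± 0.09). The fall of Il2ra was -2.06 in mice 1 and 2, where controls were at 397 and 440.1, and -0.66 in mice 3 to 5, where controls were at 168 to 178. Il7r was not called (-0.27). Of 25 double-positive stage genes 5 rose and 7 fell (median 0.00). Arpp21, a phosphoprotein abundant in double-positive cells, fell 3.15-fold in all 5 of its probe sets (-1.66 ± 0.10), from 3543, 3500.2, 4270.4, 4103 and 3596 to 1086, 1396, 1058, 1299 and 1209.8. Ccr9, a chemokine receptor of double-positive cells, fell 2.35-fold (-1.23 ± 0.06, adjusted p = 9.8e-08). Its signals were 4822, 5002, 5066, 5084 and 4908 in controls and 2168, 2198, 2101, 1954 and 2171 before transformation. Cd24a (-0.79 ± 0.14) and Cd1d1 (-0.72 ± 0.08) also fell. Rag1, Dntt and Satb1, further genes of this stage, were not called, at -0.23, 0.00 and -0.03. Cxcr4, the receptor that holds immature thymocytes in the cortex, rose 1.95-fold without overlap (0.97 ± 0.13, adjusted p = 0.00038), from 3361, 3196, 2686, 2611 and 2373 to 6759, 5608, 4263, 5694 and 5522; it is named here although outside the rule for naming genes. The list held 8 rises without before-transformation mouse 3 and 8 in mice 1 and 2 alone, but 1 in mice 3 to 5, 2 among male mice and none with the lymphomas in the fit.

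Genes of single-positive maturation and exit from the thymus formed the list with the largest share of falls in the main fit: 18 of 33 fell and 2 rose, with a median of -0.70. Granulocyte markers had the larger share in mice 1 and 2 (6 of 11 against 16 of 33). The same held with the lymphomas in the fit (5 of 11 against 11 of 33). Beyond Ccr7 and Slfn1, Slfn2 fell 4.08-fold (-2.03 ± 0.22), from 1424, 1349, 1286, 1404 and 1257 to 247, 212, 533, 323 and 426. Klf3, a zinc-finger repressor, fell 3.03-fold in all 6 of its probe sets (-1.60 ± 0.17), and Ifngr1, an interferon-gamma receptor chain, fell 2.35-fold (-1.23 ± 0.11). S1pr1, the sphingosine phosphate receptor that guides thymocytes out, had signals of 387, 377, 231, 342 and 367 in controls and 131, 97.5, 199.8, 136 and 116 before transformation (-1.34 ± 0.20, adjusted p = 0.00097). Klf2, the factor that drives S1pr1, fell 2.46-fold (-1.30 ± 0.34, adjusted p = 0.03). Its values were 229, 125, 636, 403 and 341 against 719, 735, 676, 756 and 834 in controls, mouse 3 again the nearest, and it did not pass in 7 of 10 analyses without 1 mouse (adjusted p = 0.055 to 0.072). These last genes, S1pr1 and Klf2, were named outside the rule. The median of the list was -1.09 in mice 1 and 2, with 16 falls, and -0.52 in mice 3 to 5, with 13. Gpr171 was not called (-0.48).

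Receptors for chemokines and lipid mediators fell in 10 of 27 cases and rose in 4 (median -0.23). P2ry10, a receptor for lysophosphatidylserine, had signals of 1130.1, 1146, 1371, 1378 and 1289.8 in controls and 229, 309, 264, 169.9 and 209 before transformation, 5.44-fold lower (-2.44 ± 0.15, adjusted p = 1.1e-06). Ptger4, a prostaglandin E2 receptor, fell 4.40-fold (-2.14 ± 0.14), from 713, 699, 712, 668 and 844 to 150.2, 138, 232, 146 and 174. The median of the list was -0.28 in mice 1 and 2 and 0.11 in mice 3 to 5.

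Of 41 adhesion receptors 4 rose and 7 fell (median -0.01). The rises were led by Cadm4, Cd44 and Itgam. Cadm1, a relative of Cadm4, had signals of 127, 146, 147, 121 and 102 in controls and 396, 433, 1176, 526 and 335 before transformation, 4.02-fold higher (2.01 ± 0.29) in all 3 probe sets, with mouse 3 the highest. Cd47, the signal against uptake by macrophages, fell 2.37-fold (-1.24 ± 0.11, adjusted p = 2.3e-05). Itgae, the alpha chain that binds E-cadherin, fell 2.11-fold (-1.08 ± 0.18), and the chains of LFA-1, Itgb2 (-0.60 ± 0.11) and Itgal (-0.41 ± 0.08), fell by less. Cd81 was not called (-0.05).

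Cytokine receptors included some of the largest rises among genes that mostly were not called, with 3 of 37 risen and 7 fallen (median -0.06). Il17rb, a receptor for interleukin-25, had signals of 456, 461, 355, 362 and 362 in controls and 1763, 2176, 1379, 2218 and 1666 before transformation, 4.57-fold higher (2.19 ± 0.14, adjusted p = 1.8e-06). Il27ra (-0.83 ± 0.15), Il21r (-0.60 ± 0.11) and Ifnar1 (-0.51 ± 0.08) fell. Mouse 3 had 633 for Il27ra while the other 4 of its group lay at 347 to 373 and controls at 697 to 745. Of 23 JAK, STAT and SOCS genes 3 rose and 3 fell. Stat5a, a transducer of interleukin-7 and interleukin-2 signals, had signals of 922, 899.6, 1029, 1142 and 1014 and 2099, 1549, 1758, 2356 and 2349 (2.00-fold, 1.0 ± 0.13), and its paralogue Stat5b rose 1.45-fold (0.54 ± 0.11). Socs5, an inhibitor of cytokine signalling, rose 3.12-fold (1.64 ± 0.14, adjusted p = 1.1e-05). Stat4, which acts below the interleukin-12 receptor, fell 3.0-fold (-1.58 ± 0.22), from 289, 267, 329, 292 and 389.7 to 70.2, 99.2, 184, 86.4 and 108, while its receptor chain Il12rb2 rose. Jak1 was not called (0.22).

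T-cell effector and regulatory genes split, with 2 of 22 risen and 4 fallen (median -0.07; -0.40 in mice 1 and 2, 0.21 in mice 3 to 5). Ctla4, the inhibitory receptor of activated T cells, had signals of 245, 260.1, 261, 225 and 203 in controls and 1374, 2676, 1119, 1349.9 and 1079.6 before transformation, 6.02-fold higher (2.59 ± 0.22, adjusted p = 1.2e-05), and mouse 2 had the highest value. Prf1, the pore-forming perforin, rose 1.97-fold (0.98 ± 0.15) from a low level. Tnfrsf18 (-1.37 ± 0.14) and Tnfrsf4 (-0.72 ± 0.10), costimulatory receptors of regulatory and activated T cells, fell without overlap. Ikzf2, which encodes Helios, had signals of 1664, 1631, 1983, 1892 and 1933 in controls and 349, 391, 1287, 338 and 369 before transformation, 3.90-fold lower (-1.96 ± 0.32). Mouse 3 lay between the controls and the other 4 mice. Gzma was not called (-0.80, adjusted p = 0.065).

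Of 37 transcription factors of the T lineage 8 rose and 7 fell (median 0.05). Zeb1, a repressor with roles in early thymocytes, had signals of 1423, 1433, 1279.8, 1240.3 and 1329.6 in controls and 3094, 3306, 1912, 2743 and 2506 before transformation, 1.99-fold higher (0.99 ± 0.13, adjusted p = 0.00039). Ikzf3 (Aiolos) rose 1.81-fold (0.86 ± 0.15), and Tox, needed for the CD4 lineage, rose 1.51-fold (0.60 ± 0.11). Foxp1, a factor of T-cell quiescence, fell 1.48-fold in 7 of 8 probe sets (-0.57 ± 0.09). Zbtb7b, the CD4-lineage factor ThPOK, fell 1.62-fold (-0.70 ± 0.14, adjusted p = 0.0074), and its relative in lineage choice, Runx3, was not called (0.63; -0.21 in mice 1 and 2 and 1.19 in mice 3 to 5). Zbtb7b and Runx3 are named outside the rule.

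Survival genes of the BCL2 family and death receptors showed 1 rise and 4 falls among 29, with 2 falls without control 2 or before-transformation mouse 4 or 5 and 2 rises without before-transformation mouse 2 or 5. With the lymphomas in the fit none of the 29 was called. Bcl2, which protects mature T cells, fell 1.88-fold (-0.91 ± 0.14), from 754, 769, 543, 515 and 520.2 to 342, 319, 362, 290.3 and 314. Bcl2l1, whose product BCL-XL protects double-positive cells, rose 1.36-fold (0.45 ± 0.10, adjusted p = 0.01), from 1487 to 1558 to 1620.2 to 2322, in 1 of 3 probe sets. Bcl2l11 (BIM) and Mcl1 were not called, at 0.14 and 0.29. Among 24 p53 targets and Gadd45 genes 2 rose, Gadd45g and Phlda3 (0.52 ± 0.11), and 4 fell. Sesn1, a stress-induced regulator of growth signalling, fell 1.95-fold (-0.96 ± 0.08, adjusted p = 9.6e-06). Gadd45b fell 1.77-fold (-0.83 ± 0.17), opposite to Gadd45g. Cdkn1a and Mdm2, standard p53 targets, were not called (0.45 and -0.07).

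Genes of growth and division were called in unequal numbers between lists. Of 31 D cyclins, CDKs and inhibitors 6 fell and 1 rose (median -0.20), and 3 fell without control 1 or 5. The rise was lost without any 1 of controls 1, 3, 4 and 5 or before-transformation mice 3, 4 and 5, and with the set of mouse numbers as a block 10 fell. Cdk6, a kinase partner of D cyclins, had signals of 1543, 1578, 1660.5, 1637 and 1618 in controls and 687, 816, 1016, 842 and 722 before transformation, 1.99-fold lower (-0.99 ± 0.10, adjusted p = 6.2e-05), and Ccnd3 was not called (0.11). Of 45 DNA replication genes 9 fell and 1 rose, and 43 had a difference below 0 (median -0.34). Cdt1, which licenses origins, fell 1.75-fold (-0.80 ± 0.15), and the single-strand binding subunits split, with Rpa3 lower (-0.73 ± 0.11) and Rpa1 higher (0.74 ± 0.10). The falls numbered 2 in mice 1 and 2 and 14 in mice 3 to 5. The list held 18 falls without before-transformation mouse 2 and also with the set of mouse numbers as a block, and 4 among male mice. In 42 mitosis genes, of which 38 were below 0 (median -0.25), 1 (2.38%) was called, Kif23 (-1.02 ± 0.27, adjusted p = 0.03). Their median was 0.03 in mice 1 and 2, with 1 fall, and -0.44 in mice 3 to 5, with 13, and without before-transformation mouse 2 they held 14 falls, against 6 with the set of mouse numbers as a block. Kif23 itself did not pass in 7 of 10 analyses without 1 mouse (adjusted p = 0.052 to 0.079).

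Nucleolar ribosome assembly held 3 falls in 36 genes (median -0.22), 6 without before-transformation mouse 3 and 1 without control 1 or 2 or before-transformation mouse 4 or 5. Wdr12, a factor of large-subunit maturation, stood apart at 3.41-fold lower in both probe sets (-1.77 ± 0.16, adjusted p = 2.2e-05), from 698, 697, 846, 795 and 836 to 199, 294, 291, 167 and 209. Ncl was not called (-0.13). Of 23 glycolysis genes the glucose transporter Slc2a3 was the 1 that fell (-1.19 ± 0.25), and 5 fell without before-transformation mouse 3. Its signals were 203, 275, 460.5, 165 and 167 before transformation, mouse 3 the highest, and 480.4 to 657 in controls. Ldha was not called (0.12).

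Interferon-response genes fell in 14 of 39 cases and rose in none (median -0.50), and this differed between the sets of mice. In mice 1 and 2, where the controls were female, 21 fell (median -0.86); in mice 3 to 5 there were 3 falls and 1 rise (median -0.20), and among male mice alone 3 falls. Without control 1, 2 or 5 or before-transformation mouse 1 the falls numbered 8 or 9. Gbp6, a guanylate-binding protein of the interferon response, had signals of 601, 511, 982, 954 and 553 in controls and 247, 337, 282, 191 and 212 before transformation, 2.78-fold lower (-1.48 ± 0.22, adjusted p = 0.0009). Parp14 (-1.39 ± 0.25), Irgm1 (-0.98 ± 0.17) and Gbp2 (-0.81 ± 0.17) fell too. With the set of mouse numbers as a block 15 fell, and with the lymphomas in the fit 3 fell. The part of sex or of the mouse numbers in these falls was not tested apart from the values given.

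Of 21 genes of MHC and antigen presentation 5 fell and 1 rose (median -0.22; -0.59 in mice 1 and 2, 0.03 in mice 3 to 5), with 8 falls without before-transformation mouse 3 and 3 without control 1, 2 or 5 or before-transformation mouse 1 or 4. Without before-transformation mouse 2 it had 4 rises, and mice 3 to 5 alone gave 5 rises and 2 falls, against 1 and 7 in mice 1 and 2. Tap2, a subunit of the peptide transporter, fell 1.76-fold (-0.82 ± 0.10, adjusted p = 0.00016), by -0.81 in mice 1 and 2 and -0.82 in mice 3 to 5. B2m, the light chain of class I molecules, fell 1.34-fold with overlapping values (-0.42 ± 0.12), and did not pass in 8 of 10 analyses without 1 mouse (adjusted p = 0.070 to 0.11). Cd1d1 and its neighbouring paralogue Cd1d2 went opposite ways: Cd1d1 fell from 1011 to 1080.3 to 564 to 736 and Cd1d2 rose from 177 to 253 to 329.6 to 439.9 (0.85 ± 0.13). These genes are near copies, so that their probe sets may share signal.

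Transporters and enzymes outside the T-cell programme gave some of the clearest single-gene changes. Slc43a1, a carrier of large neutral amino acids, had signals of 489, 439, 427, 489 and 450.0 in controls and 1730.4, 2020.3, 1344, 1894 and 1783 before transformation, 3.79-fold higher (1.92 ± 0.11, adjusted p = 6.8e-07). With Slc1a4 and Slc36a4 (1.81 ± 0.21) it made up the 3 rises among 34 amino acid transporters. The glutamine carrier Slc38a1 (-0.99 ± 0.17), the lysosomal sensor Slc38a9 (-0.47 ± 0.10) and Slc6a19 (-2.18 ± 0.52) were the 3 falls. Slc6a19 was uneven in controls, at 257, 215, 1086, 1084 and 475. Slc7a5, the main carrier of leucine in activated T cells, was not called, with a difference of 1.12 in mice 1 and 2 and -0.35 in mice 3 to 5. Among 25 retinoid genes the retinoid receptor Rxrg rose 2.99-fold (1.58 ± 0.28) and Dhrs3 fell. Rxrg lay at 800.2, 857, 331, 313 and 431 in controls, which split by mouse number, and at 1423, 1189.8, 1403, 1739 and 1782 before transformation. Rxra and Rxrb, its paralogues, were not called (0.15 and 0.00).

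The families of the leading genes were small, and their counts are to be read against 10.5% called over all genes. Of 21 Hippo pathway genes 2 rose, Wwc1 and its paralogue Wwc2 (0.47 ± 0.13, adjusted p = 0.043), and Rassf5, which activates the kinase MST1, fell 2.03-fold (-1.02 ± 0.08). Wwc2 stayed close to the floor, at 60.4 to 92.9, and did not pass in 8 of 10 analyses without 1 mouse (adjusted p = 0.056 to 0.098). Of 12 AMP-activated kinase genes Prkaa2 rose and Prkag2 fell (-0.48 ± 0.14), the latter not passing in 9 of 10 such analyses (adjusted p = 0.057 to 0.11). In the 8 CPEB regulators Cpeb1 and the poly(A) polymerase Tent2 rose (0.51 ± 0.08) and none fell. Of 80 ion-channel genes 1 rose, Cacng6 (0.94 ± 0.20), and 4 fell, Scn4b and Kcnh2 (-1.89 ± 0.25) among them; 2 fell when any 1 of controls 2 to 5 or before-transformation mouse 4 or 5 was left out.

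The counts in other signalling families are to be read against 4.37% risen and 6.18% fallen over all genes. Receptor-type phosphatases had 3 falls in 17, led by Ptprs (-0.65 ± 0.10), with Ptprc (CD45) not called (0.05). TNF receptors and ligands had 6 falls in 27 and no rise, with 10 falls in mice 1 and 2 and 4 falls beside 3 rises in mice 3 to 5. Ltb, the lymphotoxin beta chain, fell 2.54-fold (-1.34 ± 0.21), with mouse 3 at 1659 and the other 4 at 651 to 812 against 2060.0 to 2475 in controls. Rgs10, which ends G-protein signals, fell 4.95-fold (-2.31 ± 0.19), from 1903, 1786, 2127, 2114 and 2092 to 367, 387, 709, 300.2 and 355. The purine channels P2rx7 and P2rx1 (0.98 ± 0.14) were the 2 rises, beside 2 falls, among 26 RGS genes and adenosine or purine receptors.

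Counts for markers of other cells of the thymus are to be read against 4.37% risen and 6.18% fallen over all genes. Granulocyte markers fell in 5 of 11 cases and rose in none (median -0.43). In mice 1 and 2 there were 6 falls (median -0.88), and in mice 3 to 5 no fall and 1 rise (median -0.13). Their summed signal was 3901 to 10828 in controls and 2229 to 3275 before transformation. Camp, the cathelicidin of neutrophils, had signals of 450.5, 366, 111, 117 and 583 in controls and the floor in all 5 mice before transformation, at least 4.91-fold lower. Elane, the neutrophil elastase, was not called, with 365, 1018, 335, 359.6 and 450.2 before transformation and 198 to 506 in controls. The part of granulocytes in the falls of S100a8, S100a9 and Camp was not tested. B-cell markers fell in 1 of 9 cases (Ighm), and in 2 without before-transformation mouse 3, with sums of 4937 to 6567 and 1369 to 5559. In thymic epithelium markers Ly75 rose (0.77 ± 0.14) and Cldn4 fell (-0.92 ± 0.18), in 13 tested, and among stroma and vessel markers Col1a2 rose 2.50-fold (1.32 ± 0.22) in 10 tested. No member was called of 16 macrophage and dendritic cell markers, 5 erythroid markers or 7 markers of NK and gamma-delta T cells. The macrophage and epithelial lists changed sign between the sets, with medians of -0.41 and -0.40 in mice 1 and 2 and 0.39 and 0.47 in mice 3 to 5.

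**Figure D5:**
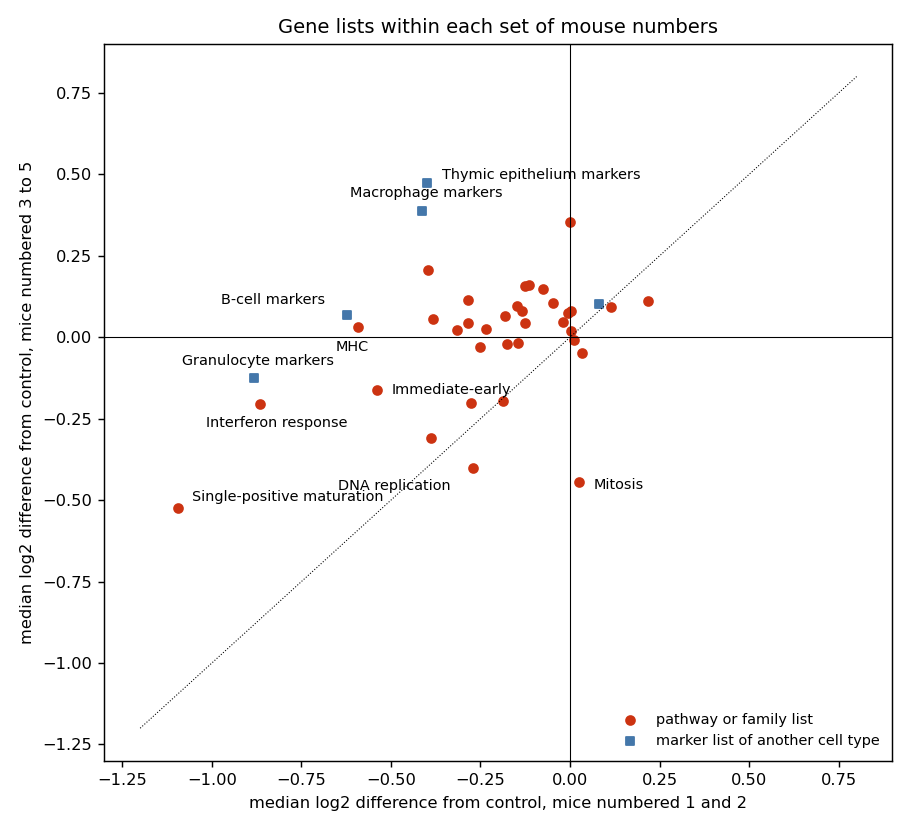
Median log2 difference from control of each reported gene list with at least 8 tested genes, in mice numbered 1 and 2 (horizontal axis) and 3 to 5 (vertical axis), with equal values on the dotted line. Single-positive maturation genes lie below 0 on both axes, while macrophage and thymic epithelium markers lie at the upper left.

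The mice before transformation were not alike. Arrays of this group correlated with each other at 0.907 to 0.975, against 0.951 to 0.983 within controls and 0.895 to 0.937 between the groups. Mouse 3 had the value nearest to the control mean in 43.6% of the 612 genes that rose and in 35.6% of the 867 that fell, the largest share of the 5 mice in both cases. Mouse 1 was farthest from the controls in 32.0% of the rises and mouse 2 in 34.5% of the falls. Without before-transformation mouse 3 the number of genes past the threshold was 1584, and without before-transformation mouse 2 it was higher still, at 1642. Without before-transformation mouse 1, 4 or 5 it was 1296, 1219 or 1165. Genes in which mouse 3 had the highest signal of its group nonetheless included Axin2 and Cadm1. For Cd53, a tetraspanin named outside the rule, the 2308 of mouse 3 lay above every control (up to 2244), while the other 4 mice were at 234 to 661. Its fall (-1.62 ± 0.46, adjusted p = 0.042) did not pass when any mouse other than mouse 3 was left out (adjusted p = 0.056 to 0.093).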

How the data were processed

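Groups and mouse numbers came from the sample titles. The deposited values are intensity on a linear scale, computed by the authors in dChip according to the design text. Not given in the sources used here: its version, model and scaling. Array controls (64) and probe sets with several symbols (932) or none (9160) were left out. Gene names are those of the platform annotation. Blank and low values were set to the 20th percentile of the table, and log2 was taken. The probe set of highest mean log2 signal, over 18 arrays, stood for a gene, which was tested if above the 40th percentile (109) on at least 5 arrays. The 5 and 5 mice were compared with limma 3.58.1 in R 4.3.3, with an intensity trend, two-sided, with Benjamini-Hochberg adjustment over 14019 genes. The code was tested on simulated data. Every adjusted p is limma's, and samples of a group are separate mice. Their number limits precision, and the main fit held no term for sex or for the set of mouse numbers.

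Named genes are the 15 largest rises and the 15 largest falls without overlap, Ctnnb1, Axin2, and per list up to 6 called members with the smallest adjusted p and the member with the highest signal that was not called. A few others are said to be outside this rule; Apc, Gsk3b, Tcf7l2, Hes1, Cd8a, Cd69, Rag1, Dntt, Bcl2l11, Cdkn1a, Mdm2, Slc7a5, Rxra, Egr2, Nab2, Itgb2 and Itgal are also outside it, chosen after values were seen. Groups, members and the 45 gene lists were chosen with earlier results of these data known. Lists are described by counts and medians, without a set test. The result of 1 list is not reported here, though its members count in totals over the lists. Alternatives covered the floor, filter, scaling, probe-set choice, blocks, sex, 3 groups in 1 fit and leaving out each mouse. Same-numbered mice were not treated as pairs, since nothing in the sources pairs them. Their deviations correlated at -0.14 to 0.38, and 2 of 5 pairs exceeded 0.1. These values cannot settle whether mice were paired. Promoters are RefSeq windows matched by gene identifier.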

Additional observations from a re-analysis of the deposited data

Results flagged for a closer look

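A single mouse stood apart from the other 4 of its group, by Dixon's test at the 95% level, in 30 of 436 groups of values tested for the named genes. Chance alone gives about 1 in 20, a rate that does not hold where values are set to the floor. For Podxl2, Zcchc12 and Wwc2 the other 4 mice all lay at the floor, so that any higher value stands apart by construction, and for Ccr7 and Cpeb1 they lay at or near it. Signals are given with the range of the other 4 mice of the same group. By mouse the number was 7 each for before-transformation mice 2 and 3, 5 for control 5, and 3 or fewer for each other mouse.

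For before-transformation mouse 1, this held for Zcchc12 (68.1 against 53.5 in the other 4 mice), Ctnna1 (1149.7 against 664 to 741) and Itgae (266 against 163 to 182). Before-transformation mouse 2 stood apart for Ifngr1 (1100.1 against 896 to 921), Ctla4 (2676 against 1079.6 to 1374), Tnfrsf18 (176 against 239 to 268), Nkg7 (149.5 against 313 to 378), E2f7 (190.2 against 89.9 to 109), Prkag1 (1584 against 1346 to 1381) and Elane (1018 against 335 to 450.2). In before-transformation mouse 3 the genes were Il27ra (633 against 347 to 373), Ikzf2 (1287 against 338 to 391), Trp53inp1 (4970.0 against 6401 to 6953), Ltb (1659 against 651 to 812), Rassf5 (1278 against 1031 to 1062), Arhgap25 (661 against 378 to 421) and Blk (268 against 151 to 169.5). For before-transformation mouse 4, this held for Hes6 (1479 against 1254 to 1301) and Cd3g (4811 against 3915 to 4093).

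Before-transformation mouse 5 stood apart for Ccr7 (62.7 against 53.5 to 53.7). In control 2 the genes were Cpeb1 (66.9 against 53.5 to 56.4). For control 3, this held for Podxl2 (77.9 against 53.5 in the other 4 mice), Cd47 (3605 against 3977 to 4068) and Dock11 (1803 against 1715 to 1737). Control 4 stood apart for Wwc2 (59.8 against 53.5 in the other 4 mice). In control 5 the genes were Scn4b (212 against 382 to 426), Tcf3 (1154 against 1269 to 1306), Trat1 (592 against 1022 to 1155), Dgka (3062 against 3942 to 4174) and Ptger4 (844 against 668 to 713).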

How the results depend on the processing

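Counts of changed genes stayed within 1.5 times the reported ones in most of 26 alternatives. Male mice alone gave 917 genes, 457 of them lower, and a fit of all 3 groups together gave 818 genes, 370 higher and 448 lower, with 139 list members called instead of 236. Leaving out 1 mouse gave 1150 to 1642 genes, 501 to 642 of them higher and 633 to 1000 lower, with 194 to 270 list members. The set of mouse numbers as a block gave 1970 genes (779 higher, 1191 lower). Sex as a covariate gave 1155 genes (559 higher, 596 lower) and 193 list members. A replicate block on mouse numbers, which are not stated to pair the mice, gave 1448 genes (611 higher, 837 lower) and 233 list members. Of 177 named genes that were called, 76 were called in every alternative run and none reversed. The causes were not tested, beyond fewer mice in the subsets. Signal near the floor limits what low genes can show: 19 rises had all controls, and 6 falls all mice before transformation, at the floor. Another probe set of the same gene was called in the same direction for 481 of 802 genes (60%) that had more than 1, and in the opposite direction for 4.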

Other observations

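Beyond the 15 largest changes in each direction, the next in size were of varied roles; ranks 16 to 30 were looked at after the values were known. Esrp2, an epithelial splicing regulator, had signals of 92.4, 91.8, 184, 128 and 221 in controls and 1814, 726, 1172, 2079 and 1605 before transformation (3.37 ± 0.32, adjusted p = 3e-05). Hemgn, a nuclear protein of blood progenitors, rose 9.88-fold (3.31 ± 0.21) and was higher again in lymphomas, with a median of 1913. Mixl1, a homeobox factor of early mesoderm, and Rai14, an actin-linked protein, lay at the floor in each control and reached 224 to 409 and 386 to 542 before transformation. Chdh, the choline dehydrogenase of mitochondria, went from 727, 673, 672, 631 and 648 to 4762, 4506, 3450.3, 5333 and 4625 (6.71-fold, 2.75 ± 0.11, adjusted p = 2.1e-08). Eci3, an enzyme of fatty acid oxidation, was high only before transformation among the 3 groups, at 266 to 829 against 53.5 to 84.1 in controls and 54.8 to 111 in lymphomas. Among falls, Padi4, which converts arginine to citrulline in proteins, and Ccdc153 had no value above the floor before transformation or in the 8 lymphomas, against 179 to 323 and 170.1 to 296 in controls. Cmah, which makes a sialic acid form, fell 4.09-fold in all 5 of its probe sets (-2.03 ± 0.22). Prodh, the proline dehydrogenase, fell 4.65-fold (-2.22 ± 0.17).

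Genes that changed were at times neighbours. In the RefSeq gene order, 25 runs of at least 3 adjacent tested genes changed in 1 direction, 12 up and 13 down, with 80 genes and at most 4 in a run. These counts are to be read against 4.37% risen and 6.18% fallen over all genes. Whether runs were more frequent than without any link between neighbours was not tested. Cecr2 lay in a run of 4 rises on chromosome 6 with Slc25a18, Atp6v1e1 and Bcl2l13. On chromosome 13, Eci3 lay with Prpf4b, Fam217a and Eci2, and on chromosome 19, Cd274 and Pdcd1lg2, which encode the ligands of PD-1, lay with Plgrkt and A930007I19Rik. Gpr25 lay between Inava and Camsap2 and Esrp2 between Nfatc3 and 1810019D21Rik. Runs of falls held Ifnar1, Ifngr2 and Tmem50b, and Cd5 with A430093F15Rik and Cd6. Values of Cd5, A430093F15Rik and Cd274 overlapped between the groups. Cd5 did not pass in 6 of 10 analyses without 1 mouse (adjusted p = 0.050 to 0.070). The share of genes called was 8.04% on chromosome 17 and 13.4% on chromosomes 9 and 10, the extremes, and 10.5% over all. Windows of up to 10, 25 and 50 tested genes on each side were also taken. Around Ctnnb1 on chromosome 9 the share called was 15% of 20, 18% of 50 and 19.1% of 89 genes. The last of these held fewer than 50 genes on 1 side, where the tested genes of the chromosome ended. Around Cd4 the share was 5% of 20, 8% of 50 and 12% of 100.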
